A study of Homo sapiens with 3 samples.

Results

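Mirtrons are miRNA hairpins that are cut out of a host transcript by the spliceosome. Canonical hairpins are released from the primary transcript by the nuclease Drosha, whereas a mirtron is a short intron that is excised, debranched and folded, and then enters the common pathway through Dicer. Its hairpin therefore begins at the 5′ splice site and ends at the 3′ splice site of an intron. The 9 hairpins looked for were hsa-mir-877, hsa-mir-1224, hsa-mir-1225, hsa-mir-1226, hsa-mir-1227, hsa-mir-1229, hsa-mir-1236, hsa-mir-1237 and hsa-mir-1238, chosen by name. Of these, 6 had a row among the 661 hairpins listed, and 7 of their mature arms had a row among the 783 mature names. Over the whole RefSeq reference, 523 of 1562 hairpins were matched by name to a listed hairpin. The other 3 hairpins (hsa-mir-1224, hsa-mir-1225 and hsa-mir-1238) had no row and were given no level.

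The data came from MV4-11, a human acute myeloid leukemia cell line with the FLT3-ITD mutation and an MLL-AF4 fusion, whose genotype is given as WT. All cells carried an empty-vector lentiviral CRISPR-Cas9 construct and were grown for 2 weeks before RNA was taken. Small RNA libraries were made from 3 replicates, which form 1 group, so there was no control or treated group. Small RNA was profiled to learn which miRNAs these cells express.

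Total counts over hairpins were 11022587 to 12722997 per library. miR-155-5p, miR-223-3p, miR-142-3p and miR-142-5p, miRNAs of blood cells, ranked between 11 and 37 of 783 mature names. Replicate 1 stood apart, since miR-21-5p took 385425 CPM (counts scaled to a library total of 1000000) there against 202144 to 268403 in the others. The median hairpin was higher by 0.37 in replicate 2 and by 0.48 in replicate 3 than in replicate 1, on the log2 scale of CPM. Intervals below are Wilson 95% intervals on the counts of 1 library, so they cover counting error only. No molecular identifiers are described for these libraries, so copies of a molecule could not be told apart from separate molecules.

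The 6 hairpins are shown 5′ to 3′ as RefSeq gives them, because their ends are the splice sites that define a mirtron. Capitals mark the GU and AG of those splice sites.
hsa-mir-877: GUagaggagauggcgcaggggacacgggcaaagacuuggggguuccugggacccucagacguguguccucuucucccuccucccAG
hsa-mir-1226: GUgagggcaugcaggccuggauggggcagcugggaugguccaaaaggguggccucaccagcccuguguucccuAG
hsa-mir-1237: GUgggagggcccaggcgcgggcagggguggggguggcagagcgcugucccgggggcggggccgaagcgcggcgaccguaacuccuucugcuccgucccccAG
hsa-mir-1227: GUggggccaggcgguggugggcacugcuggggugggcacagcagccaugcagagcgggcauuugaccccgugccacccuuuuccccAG
hsa-mir-1229: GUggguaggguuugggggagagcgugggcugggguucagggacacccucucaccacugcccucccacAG
hsa-mir-1236: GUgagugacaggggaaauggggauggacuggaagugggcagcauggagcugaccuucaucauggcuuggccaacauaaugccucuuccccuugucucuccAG

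In all 9 hairpins of the list the first and last base were those of an intron annotated in GENCODE on the same strand. Such ends were found for 23 of 1562 reference hairpins. The letters GU at the start together with AG at the end, without regard to introns, were present in 36 reference hairpins, or 2.30%. Among the 523 listed hairpins matched to the reference by name, 15 had these letters, or 2.87%.

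All coordinates are of GRCh38. hsa-mir-877 (chr6:30584332-30584417, plus strand) fills intron 13 of 24 of ABCF1, an ATP-binding protein that acts in translation. hsa-mir-1226 (chr3:47849555-47849629, plus strand) fills intron 21 of 22 of DHX30, an RNA helicase. hsa-mir-1237 (chr11:64368602-64368703, plus strand) fills intron 11 of 16 of RPS6KA4, a kinase that acts on chromatin and transcription factors.

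hsa-mir-1227 (chr19:2234062-2234149, minus strand) fills intron 5 of 6 of PLEKHJ1, which encodes a protein with a pleckstrin homology domain. Here 4 of the 6 coding transcripts that span the site have this intron, whereas for the other 5 hairpins each spanning coding transcript has it. hsa-mir-1229 (chr5:179798278-179798346, minus strand) fills intron 13 of 14 of MGAT4B, an enzyme that builds branched N-glycans. hsa-mir-1236 (chr6:31956839-31956940, minus strand) fills intron 3 of 10 of NELFE, a subunit of the negative elongation factor that pauses RNA polymerase. Intron numbers are those of the coding transcript with the most exons.

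Within the list the hairpins were 69 to 102 bases long, against a median of 81 over the 523 matched hairpins. Their GC content ran from 54.9% in hsa-mir-1236 to 77.5% in hsa-mir-1237, all above the median of 54.2%, and 47.8% of the matched hairpins reached at least the lowest of these values. The minimum free energy per base, where a more negative value is a more stable predicted fold, ran from -0.566 kcal/mol in hsa-mir-1237 to -0.357 in hsa-mir-1236. The median was -0.468, and 18.7% of matched hairpins were more stable per base than hsa-mir-1237 while 84.1% were more stable than hsa-mir-1236. hsa-mir-877 (-0.463) and hsa-mir-1226 (-0.472) lay near the median.

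The 7 listed arms are shown with the seed, bases 2 to 8, in capitals, since the seed is the part through which a miRNA recognizes its targets.
hsa-miR-877-5p: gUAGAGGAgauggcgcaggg
hsa-miR-877-3p: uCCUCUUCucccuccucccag
hsa-miR-1226-5p: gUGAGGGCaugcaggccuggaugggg
hsa-miR-1226-3p: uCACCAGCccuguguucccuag
hsa-miR-1237-3p: uCCUUCUGcuccgucccccag
hsa-miR-1227-3p: cGUGCCACccuuuuccccag
hsa-miR-1229-3p: cUCUCACCacugcccucccacag
No seed was shared, either among these arms or with another of the 679 listed mature names that had a reference sequence.

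The 3p arms carry the end of the intron, where splicing relies on a run of pyrimidines followed by AG. All 5 listed 3p arms ended in AG, and 4 of them in CAG, whereas 74 of 291 listed 3p arms with a reference sequence ended in AG, or 25.4%. Their pyrimidine content was 68.2% in miR-1226-3p, 73.9% in miR-1229-3p, 75% in miR-1227-3p, 81.0% in miR-1237-3p and 90.5% in miR-877-3p. The median over the 291 arms was 59.1%, and 27.8% of them reached at least 68.2%. At the other end, miR-877-5p and miR-1226-5p began with the GU of the 5′ splice site and were 55% and 53.8% G, against a median of 28.6% over 258 listed 5p arms. These are features of the reference sequences, not measurements of these libraries.

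The mirtrons were a small part of the small RNA. Their hairpins together took 1123, 1546 and 1596 counts in replicates 1, 2 and 3. That was 88.3 CPM (interval 83.3 to 93.6), 140 CPM (133 to 147) and 136 CPM (130 to 143), lowest in replicate 1. In FPKM, which divides by the length of the hairpin, they made up 0.0113% of the summed level. Their levels nevertheless covered a broad range, and their median of 68.1 FPKM was close to the median of 68.3 FPKM over all 661 hairpins.

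hsa-mir-877 was the most abundant, with 690, 986 and 917 counts in replicates 1, 2 and 3. At 870 ± 212 FPKM (mean ± SD, n = 3) it ranked 180 of 661. hsa-mir-1226 had 290, 355 and 485 counts, which gave 434 ± 126 FPKM (SD, n = 3) and rank 208. These levels were close to those of hsa-mir-331 (878 ± 164 FPKM) and hsa-mir-2110 (452 ± 105 FPKM; SD, n = 3), which stood just above them in rank. Both mirtrons were thus in the upper part of the listed hairpins by mean level, and both were lowest in replicate 1.

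hsa-mir-1237 had 73, 99 and 90 counts in replicates 1, 2 and 3, with a mean of 73.9 ± 16.2 FPKM (SD, n = 3) and rank 326. hsa-mir-1227 had 56, 67 and 68 counts, with a mean of 62.4 ± 10.3 FPKM (SD, n = 3) and rank 342. These hairpins bracketed the middle of the list, as 50.7% and 48.3% of the listed hairpins were below them.

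hsa-mir-1229 had 7, 29 and 27 counts in replicates 1, 2 and 3, with a mean of 26.9 ± 16.5 FPKM (SD, n = 3) and rank 435. hsa-mir-1236 had 7, 10 and 9 counts, with a mean of 7.34 ± 1.78 FPKM (SD, n = 3) and rank 645. In CPM hsa-mir-1236 was at 0.550 (interval 0.267 to 1.14), 0.907 (0.493 to 1.67) and 0.768 (0.404 to 1.46). These 3 intervals overlapped, and the hairpin lay near the minimum of 10 counts in 1 library that each row of the table reached.

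**Figure D1:**
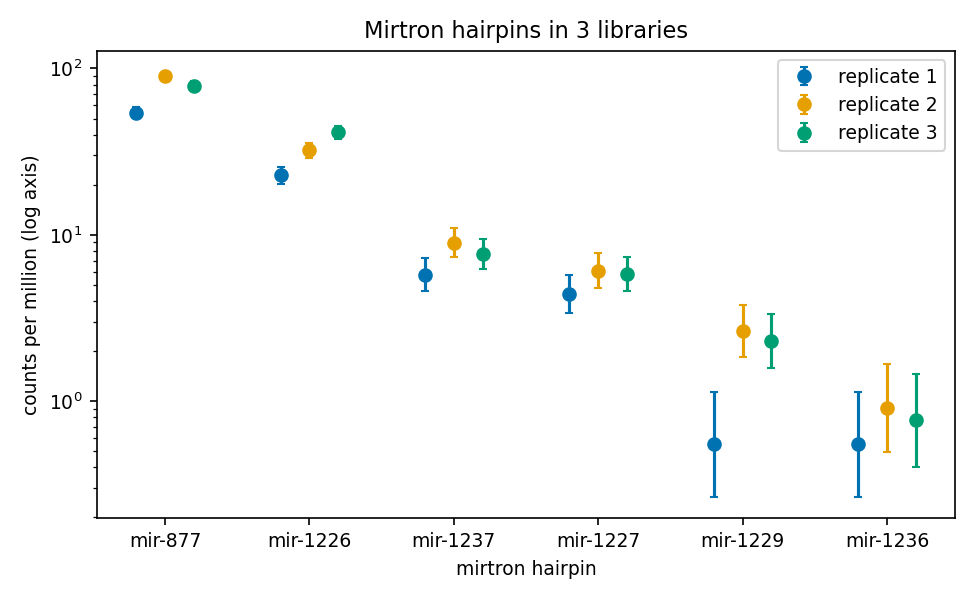
CPM of the 6 mirtron hairpins (log axis) in replicates 1, 2 and 3, with points for libraries and bars for Wilson 95% intervals. The hairpins span from 89.5 CPM for hsa-mir-877 in replicate 2 down to 0.550 for hsa-mir-1229 and hsa-mir-1236 in replicate 1, and replicate 1 is the lowest point of each hairpin.

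**Figure D2:**
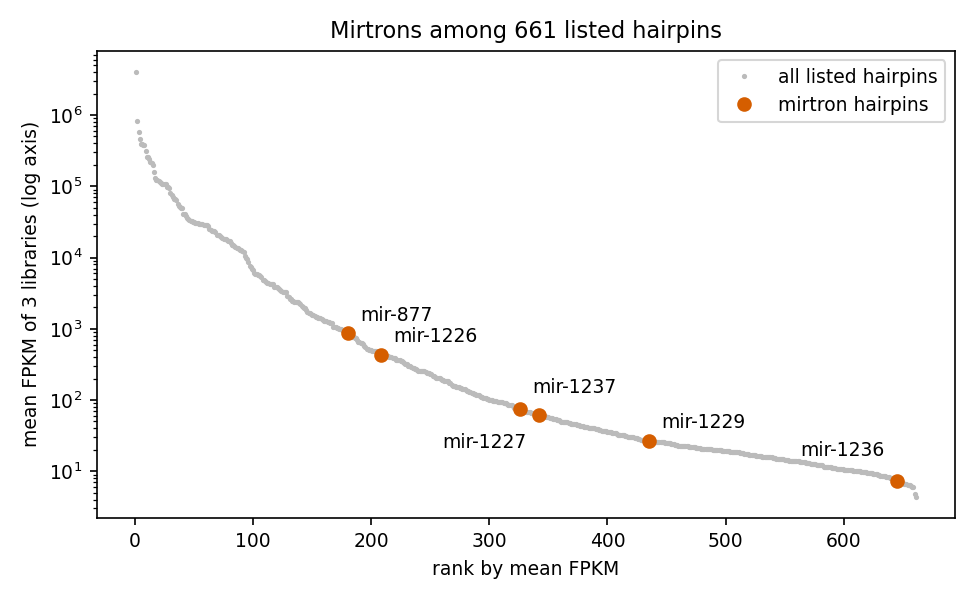
Mean FPKM of 3 libraries (log axis) against rank for the 661 listed hairpins in grey, with the 6 mirtrons in orange. The mirtrons sit from rank 180 (hsa-mir-877) to rank 645 (hsa-mir-1236).

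The order of the hairpins was read within libraries, as the ratio of counts per length with an exact 95% interval. hsa-mir-877 exceeded hsa-mir-1226 by 2.07-fold (interval 1.81 to 2.39), 2.42-fold (2.14 to 2.74) and 1.65-fold (1.48 to 1.84) in replicates 1, 2 and 3. hsa-mir-1226 exceeded hsa-mir-1237 by 5.40-fold, 4.88-fold and 7.33-fold, each with an interval above 1. On this scale the pair of hsa-mir-1237 and hsa-mir-1227 was not resolved. Their ratio of 1.12, 1.27 and 1.14 had intervals that included 1 in all 3 libraries. Division by hairpin lengths of 102 and 88 bases lowered these ratios, although nearly all reads lay in 3p arms of 21 and 20 bases. The undivided counts were 73 and 56, 99 and 67, and 90 and 68 in replicates 1, 2 and 3.

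hsa-mir-1227 exceeded hsa-mir-1229 by 6.27-fold, 1.81-fold and 1.97-fold, each with an interval above 1. hsa-mir-1229 exceeded hsa-mir-1236 by 4.29-fold and 4.43-fold in replicates 2 and 3, but in replicate 1 the ratio of 1.48 had an interval from 0.442 to 4.94. Both had 7 counts in replicate 1, so that ratio came from their lengths of 69 and 102 bases alone. From the top to the bottom of the list, hsa-mir-877 exceeded hsa-mir-1236 by 118 ± 2.26-fold (SD, n = 3). The intervals were 56.4 to 292, 63.3 to 245 and 63.4 to 265 in replicates 1, 2 and 3, far wider than this SD. hsa-mir-1236 had only 7, 10 and 9 counts in these libraries. The excess of hsa-mir-1226 over hsa-mir-1236 was 59.3 ± 12.8-fold (SD, n = 3), with intervals of 27.0 to 141, 25.9 to 102 and 38.3 to 161. A sign-flip permutation over 3 libraries cannot give a p-value below 0.25, so none was computed.

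The arms of a hairpin were compared because usually one strand is retained and the other is degraded. Both arms were listed for hsa-mir-877 and hsa-mir-1226, and the pairs had opposite preferences. miR-877-5p had 575, 742 and 709 counts in replicates 1, 2 and 3, and miR-877-3p had 106, 152 and 198. The 5p strand dominated in 3 of 3 libraries, by 4.63 ± 0.947-fold (SD, n = 3). Its share of the reads of both arms was 84.4% (interval 81.5 to 87.0), 83.0% (80.4 to 85.3) and 78.2% (75.4 to 80.7). Replicate 3 lay below replicate 1 with no overlap of the intervals, so the strength of the preference varied between libraries by more than counting error.

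miR-1226-3p had 261, 327 and 440 counts in replicates 1, 2 and 3, and miR-1226-5p had 15, 14 and 24. The 3p strand dominated in 3 of 3 libraries, by 19.7 ± 3.20-fold (SD, n = 3). The 5p share was 5.43% (interval 3.32 to 8.77), 4.11% (2.46 to 6.77) and 5.17% (3.50 to 7.58), and these intervals overlapped throughout.

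Both preferences passed the test that was fitted on all 196 pairs of arms. The log2 ratio of 5p to 3p was 2.19 ± 0.29 for miR-877 (SE, edgeR quasi-likelihood adjusted p = 0.000822) and -4.27 ± 0.32 for miR-1226 (adjusted p = 8.29e-05). A pair was called at an adjusted p under 0.05 with an absolute log2 ratio of at least 1. Over all pairs 40.8% were called toward 5p and 41.3% toward 3p, so a call in either direction was common. In absolute size miR-1226 ranked 70 and miR-877 ranked 122 of the 196 ratios, around the median of 3.13.

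**Figure D3:**
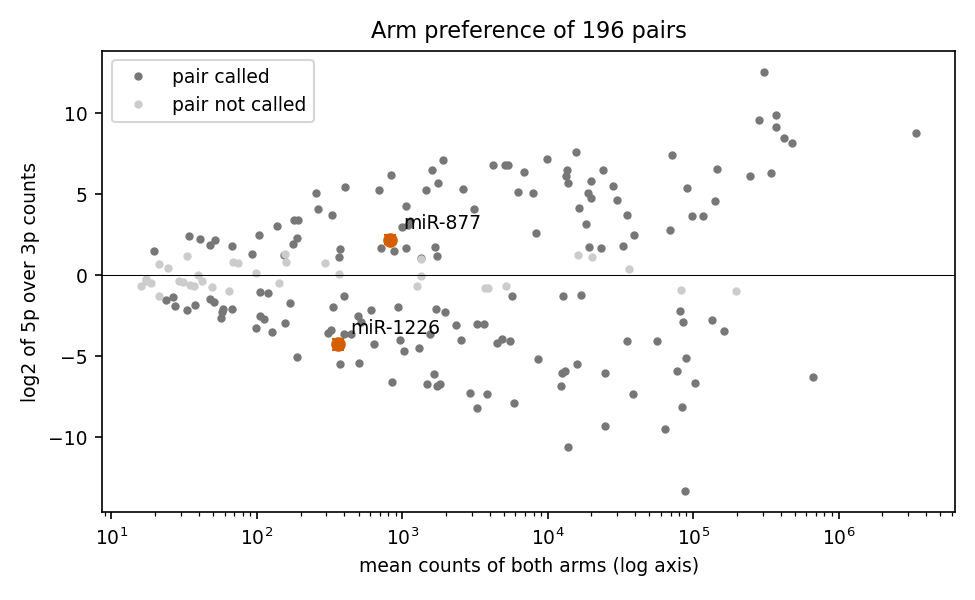
Log2 ratio of 5p to 3p counts against the mean counts of both arms (log axis) for 196 pairs, with called pairs in dark grey and others in light grey. miR-877 at 2.19 and miR-1226 at -4.27 are in orange with bars for the standard error, on opposite sides of 0.

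hsa-mir-1237, hsa-mir-1227 and hsa-mir-1229 each had a row for the 3p arm alone. miR-1237-3p had 72, 98 and 89 counts in replicates 1, 2 and 3, miR-1227-3p had 56, 66 and 68, and miR-1229-3p had 7, 29 and 27. The level of the 5p arm was not given by the table, but the reads of the hairpin that fell outside the listed arm limit it. Reads of listed arms did not exceed those of the hairpin in 525 of 535 hairpins with arms of their own name and 1 row each. The 5 mirtrons with a listed arm were among these 525. The difference of the counts was therefore taken as the reads outside the arms.

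Outside miR-1237-3p there was 1 read in each library, of 73, 99 and 90 hairpin reads. Outside miR-1227-3p there was 1 read of 67 in replicate 2 and 0 of 56 and 0 of 68 in replicates 1 and 3, where 0 allows a share of up to 5.36% and 4.41%, taking 3 reads as the limit that a count of 0 allows. Outside miR-1229-3p there were 0 of 7, 0 of 29 and 0 of 27 reads, which by the same limit allows a share of up to 42.9%, 10.3% and 11.1%. Nearly every read of these 3 hairpins therefore lay in the 3p arm, and at this depth a weak 5p arm of hsa-mir-1229 was not detectable. With hsa-mir-1226, 4 of the 5 mirtrons that had a listed arm were led by the 3p arm. Over all 381 hairpins with a listed arm of their own name marked 5p or 3p, 55.1% were led by 3p in summed counts, and over the 198 of these with a single listed arm 57.1% were, so a 3p lead was common and the count over 5 mirtrons is a description.

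With a pair of listed arms, reads outside the arms may come from the loop or from ends that the annotation does not cover. The origin of such reads was not tested. hsa-mir-1226 had 14, 14 and 21 such reads in replicates 1, 2 and 3. That was 4.83% (interval 2.90 to 7.94), 3.94% (2.36 to 6.51) and 4.33% (2.85 to 6.53) of its reads, with little difference between libraries. hsa-mir-877 had 9, 92 and 10 such reads. Replicate 2 stood apart from the others, with 9.33% (interval 7.67 to 11.3) against 1.30% (0.688 to 2.46) in replicate 1 and 1.09% (0.593 to 2.00) in replicate 3. The mean of 3.91% ± 4.70 (SD, n = 3) fell to 1.20% without replicate 2.

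The reads outside the arms in replicate 2 were set against comparable hairpins. Of 98 hairpins with at least 100 counts in every library and at least 30 reads outside the arms in all, hsa-mir-877 had the highest ratio of its highest library share to its median share, 7.15, followed by 4.03, with a median of 1.24. This comparison was chosen after the values had been seen. With 9 and 10 such reads in replicates 1 and 3, hsa-mir-877 met the minimum of 30 only through replicate 2. Its place in this set therefore rests on the same high value and gives it no further support. The tables do not give the position of these reads within the hairpin. Over the 173 hairpins with a pair of listed arms and at least 10 counts in each library the median share outside the arms was 0.0584%. Over the 267 with a single listed arm it was 3.69%, against means of 1.16% ± 0.186 for hsa-mir-1237 and 0.498% ± 0.862 for hsa-mir-1227 (SD, n = 3), the latter 0 without replicate 2. Of all 440 hairpins compared, 68.2% had a lower share than the mean of hsa-mir-1226 and 66.8% than that of hsa-mir-877. The median share was 2.83% over 2 hairpins of the miR-320 family and 8.79% over 6 derived from small nucleolar RNAs. Over 2 other hairpins with intron ends it was 17.3%.

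hsa-mir-1236 had no listed arm, although RefSeq gives it both. None of its 26 reads over 3 libraries could be assigned to an arm here. Each mature row reached at least 10 counts in 1 library, whereas this hairpin had 7, 10 and 9 reads in replicates 1, 2 and 3. The lack of a listed arm therefore says little about where its reads fell.

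**Figure D4:**
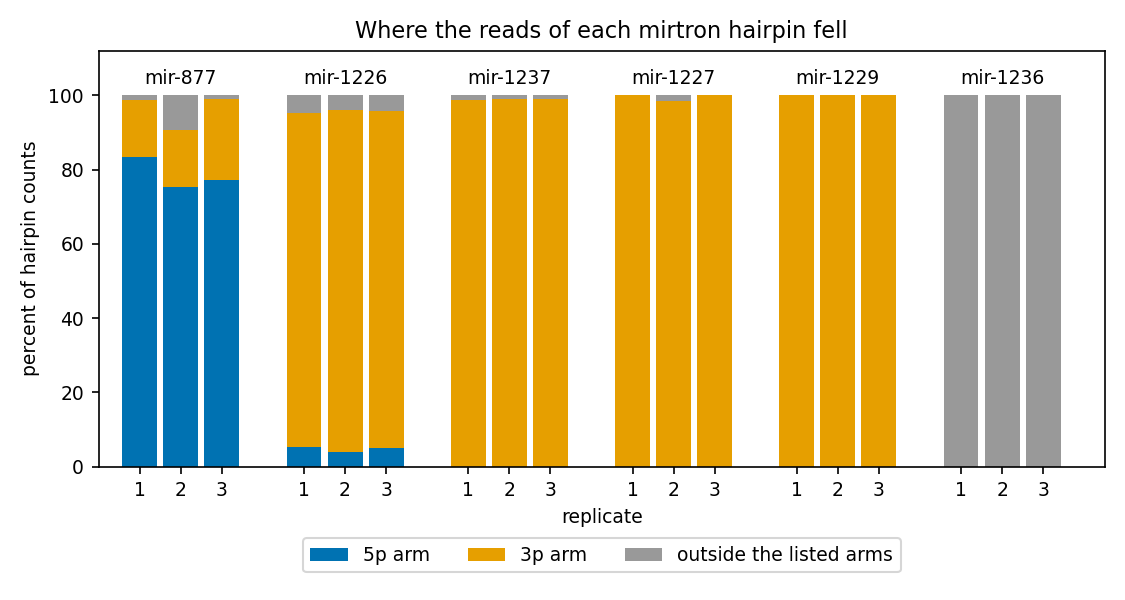
Percent of the counts of each mirtron hairpin in the 5p arm (blue), the 3p arm (orange) and outside the listed arms (grey) in replicates 1, 2 and 3. hsa-mir-877 is mostly blue with a grey part of 9.33% in replicate 2, hsa-mir-1226, hsa-mir-1237, hsa-mir-1227 and hsa-mir-1229 are mostly orange, and hsa-mir-1236, with no listed arm, is grey throughout.

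Among the 783 mature names, arms of the mirtrons covered ranks 211 to 625. miR-877-5p led with 3043 ± 599 FPKM (SD, n = 3), followed by miR-1226-3p with 1396 ± 408 and miR-877-3p with 652 ± 218 FPKM. The minor arm of the most abundant mirtron, miR-877-3p, was thus above the leading arms of hsa-mir-1237 (370 ± 81.6 FPKM), hsa-mir-1227 (285 ± 45.9 FPKM) and hsa-mir-1229 (83.3 ± 51.0 FPKM). miR-1226-5p was lowest with 60.1 ± 19.2 FPKM (SD, n = 3), within the SD of miR-1229-3p.

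The spread between libraries was then examined. In CPM all 6 mirtron hairpins were lowest in replicate 1, as were 62.5% of the 661 listed hairpins. When libraries were scaled by the median of ratios, which removes the shift of the median hairpin, 3 of the 6 were lowest in replicate 1, against 41.3% of all hairpins. The log2 ratio of replicate 2 to replicate 1 was 0.72 for hsa-mir-877, 0.50 for hsa-mir-1226, 0.65 for hsa-mir-1237, 0.47 for hsa-mir-1227 and 0.72 for hsa-mir-1236, against a shift of 0.37 of the median hairpin. For hsa-mir-1236 this was 10 against 7 counts, with overlapping intervals. Replicate 2 was also its only library at the minimum of 10 counts that every row reached, so that minimum favoured a high ratio. For hsa-mir-877 the ratio of replicate 2 to replicate 1 was still 0.35 after scaling by the median of ratios. Its CPM intervals in replicates 1 (50.3 to 58.4) and 2 (84.0 to 95.2) were apart. Part of this shift lay in the 92 reads outside its arms in replicate 2. Its listed arms alone had 681, 894 and 907 counts in replicates 1, 2 and 3. The unscaled ratio of replicate 3 to replicate 1 was 0.86 for hsa-mir-1226. It was between 0.40 and 0.53 for hsa-mir-877, hsa-mir-1237, hsa-mir-1227 and hsa-mir-1236.

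hsa-mir-1229 shifted most. Its log2 ratios to replicate 1 were 2.26 in replicate 2 and 2.07 in replicate 3, and they were still 1.89 and 1.58 after scaling by the median of ratios. Its interval in replicate 1, 0.267 to 1.14 CPM, lay below those in replicate 2 (1.83 to 3.78) and replicate 3 (1.58 to 3.35). Its coefficient of variation of 61.2% was above that of 92.2% of 219 hairpins with 0.5 to 2 times its mean count, and counting alone would give 21.8%. Without replicate 1 it was 9.35%, and without replicate 3 it was 92.5%.

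The coefficients of variation of the other 5 were 16.6% to 28.9%, and the highest was that of hsa-mir-1226. Without replicate 1 they were 9.43% for hsa-mir-877, 17.7% for hsa-mir-1226, 11.0% for hsa-mir-1237, 3.26% for hsa-mir-1227 and 11.7% for hsa-mir-1236. Scaling by TMM or the median of ratios lowered them to between 6.22% and 15.3%. For hsa-mir-877 it was 24.3%, where counting alone would give 3.40%, and hairpins of like count had a median of 19.6%. For hsa-mir-1227 it was 16.6% with 12.5% from counting alone, and for hsa-mir-1236 24.3% with 34.0%, so the spread of these hairpins was close to or below that of counting.

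**Figure D5:**
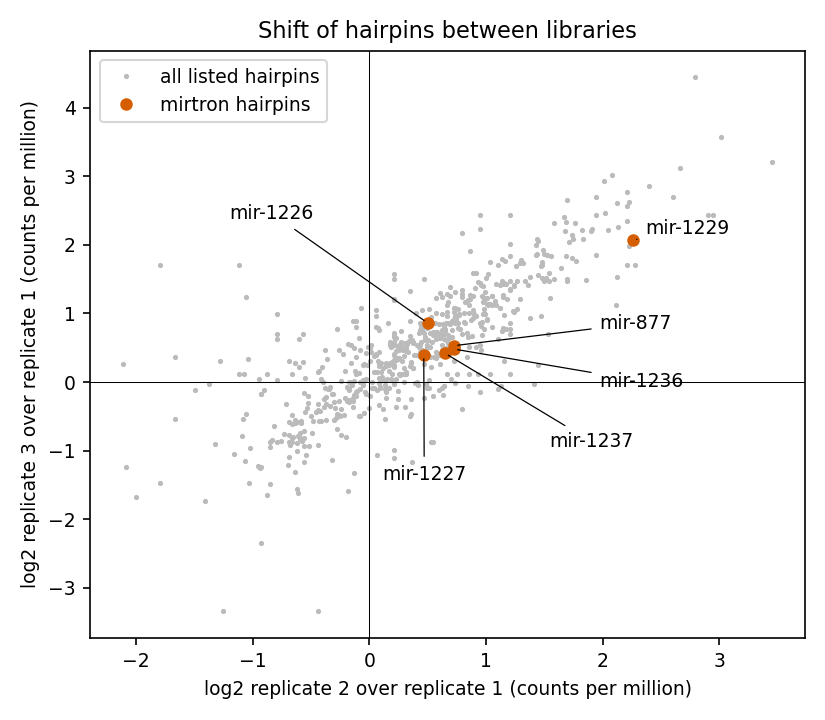
Log2 ratio of CPM in replicate 3 to replicate 1 against that in replicate 2 to replicate 1, for all listed hairpins above 0 in each library (grey) and the 6 mirtrons (orange). hsa-mir-1229 lies apart at 2.26 and 2.07, and the other 5 mirtrons lie together between 0.40 and 0.86.

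Hairpins with the most similar pattern over the 3 libraries were found by the Euclidean distance of centred log2 CPM, among hairpins of like mean count. With 3 libraries this is a description. For hsa-mir-877 they were hsa-mir-1260b (distance 0.0130), hsa-mir-324 (0.105) and hsa-mir-1260a (0.107). hsa-mir-4659a (0.0724), hsa-mir-145 (0.0739) and hsa-mir-550a-2 (0.108) were nearest to hsa-mir-1226. For hsa-mir-1237 they were hsa-mir-135b, hsa-mir-2355 and hsa-mir-3176, at distances of 0.0770 to 0.182. hsa-mir-3064, hsa-mir-548n and hsa-mir-320d-2 were within 0.0639 of hsa-mir-1227.

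For hsa-mir-1229, which had no close match, they were hsa-mir-548d-1, hsa-mir-497 and hsa-mir-548a-2 at 0.224 to 0.304. hsa-mir-3130-2, hsa-mir-548al and hsa-mir-6748 were nearest to hsa-mir-1236, at 0.109 to 0.123. The mirtrons were left out as candidates, so their absence among these neighbours says nothing about how alike their patterns were.

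Further lists of hairpins with noncanonical members were set beside the mirtrons as a description. The 8 listed hairpins of the miR-320 family, named for a miRNA that matures without Drosha, had a median of 197 FPKM, and hsa-mir-320a reached 41424 FPKM. The 7 listed hairpins derived from small nucleolar RNAs had a median of 321 FPKM. In each of these lists the range overlapped that of the mirtrons, and the differences were not tested.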

How the data were processed

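Small RNA reads from 3 libraries were aligned by the authors and counted over the hairpins and mature arms of miRBase release 21. The submitters' processing notes name Novoalign 2.08.03 and the builds hg19 and mm10, without roles. The tables deposited by the authors give raw counts per feature and FPKM, that is, counts scaled by feature length and library total. A length of the RefSeq hairpin minus 1 base (tolerance 0.05) lay behind the FPKM of 515 of 522 matched hairpins, and of all 6 mirtrons. Every row reached at least 10 counts in 1 library, so features without a row were not analysed here.

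CPM of each table's total, Wilson intervals and ranks were obtained in Python 3.11.15 (pandas 2.3.3, scipy 1.17.1, numpy 2.4.6) and plotted with matplotlib 3.10.9. Rows that share a mature name were summed. The arms of all 196 pairs were compared in edgeR 4.0.16 (R 4.3.3) by its quasi-likelihood test, with the library as a block, after the script had been tested on simulated data. The limma 3.58.1 and DESeq2 1.42.0 tests, other scalings and leaving out each library were alternatives. Hairpins were folded with RNAfold 2.7.2. Intron ends came from GENCODE release 29 and sequences from RefSeq (GRCh38.p14). Named hairpins were the mirtrons, the 3 hairpins nearest to each in pattern among those of 0.5 to 2 times its mean count, the neighbours of each in rank, and up to 6 other hairpins with intron ends, by level, beside the miR-320 and small nucleolar RNA lists. From those lists hsa-mir-320a was picked with its level known. The members and lists were chosen with earlier results of these data known.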

Additional observations from a re-analysis of the deposited data

How the results depend on the processing

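Of 166 values recomputed under an alternative, 144 stayed within a set limit or kept their call, 22 moved beyond the limit and 0 reversed. For levels, ranks and shares outside the arms the limit was the SD between replicates. For coefficients of variation and the number of pairs called it was a change of 1.5 times. The 22 were 5 ranks and 17 coefficients of variation. Leaving out 1 of 3 libraries cannot move a mean by its SD, so those values say nothing about stability. Scaling by TMM or by the median of ratios lowered the coefficient of variation of 5 mirtrons by more than 1.5 times, to between 6.22% and 15.3%, but not that of hsa-mir-1229, which was 54.6% to 55.3%. Without division by length hsa-mir-1236 ranked 621, hsa-mir-1227 334, hsa-mir-1237 309 and hsa-mir-1226 221, the last also without replicate 3.

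The arm preference of miR-877 ranged from 2.06 to 2.36 and that of miR-1226 from -4.34 to -4.15 (log2) with a library left out, with edgeR adjusted p-values up to 0.0215. The number of pairs called ranged from 140 to 169 across these fits, against 161, and was 158 with limma and 163 with DESeq2. With no replicate block it was 162, and the ratios were 2.15 and -4.28. It was 148 of 183 without names that have several rows, and the minimum of 10 counts removed no pair. Depth limits hsa-mir-1229 and hsa-mir-1236 most, with as few as 7 counts in a library.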

Other observations

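Beyond the hairpins chosen by name, 14 reference hairpins also had the ends of an annotated intron. A row was present for 6 of them, against 523 matched by name among all 1562 reference hairpins. All 6 were below hsa-mir-1227 in mean FPKM. hsa-mir-3620, in an intron of ARF1, a small GTPase of vesicle transport, was highest with 30, 37 and 26 counts in replicates 1, 2 and 3 and a mean of 33.9 ± 7.95 FPKM (SD, n = 3), between hsa-mir-1227 and hsa-mir-1229. hsa-mir-6891 in HLA-B had 13, 14 and 13 counts, hsa-mir-6807 in TRIM28 had 9, 13 and 15, hsa-mir-7108 in LMNB2 had 8, 9 and 11, and hsa-mir-6892 in ZYX had 9, 9 and 12.

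hsa-mir-6821, in an intron of the kinase gene PIM3, had 11, 4 and 1 counts in replicates 1, 2 and 3, so it was highest in the library where the 6 mirtrons chosen by name were lowest. Its intervals in CPM were 0.483 to 1.55 in replicate 1 and 0.0151 to 0.484 in replicate 3, which overlap only at their ends. Arms were listed for 3 of these 6 hairpins. They were miR-3620-3p with 24, 37 and 26 counts, miR-6891-5p with 8, 13 and 8 and miR-6807-5p with 5, 12 and 10.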
